A study of Trichoderma reesei with 12 samples.

Results

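The 200 genes described here were abundant and nearly level across light and genotype in mycelium of the ascomycete Trichoderma reesei. They were chosen by their measured values. Each gene had a group level, log2(mean normalized count + 2), in each of 4 groups of cultures, where a normalized count is a read number scaled by the library's size factor. Genes whose highest and lowest group levels differed by less than 0.3 on the log2 scale (1.23-fold) were kept, and the 200 of these with the highest mean normalized count over 12 libraries were taken. They are 1.84% of the 10879 genes measured. As group levels and mean counts made the choice, these values are given below as a description and not as a test.

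The study compared the deletion strain Δrgs4 with its parent, the wild-type QM6a. Both were grown in liquid minimal medium with cellulose as carbon source at 28 °C for 96 h, either under constant illumination (LL) or in permanent darkness (DD). The groups were Δrgs4 LL, Δrgs4 DD, wild-type LL and wild-type DD, each with 3 libraries of total mycelial RNA. Δrgs4 is 1 strain, in which a hygromycin resistance cassette replaced rgs4, and the study's methods state that it carries more than a single copy of this cassette. The study's methods describe the replicates as biological, and each was a culture of the same strain.

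RGS proteins speed up the hydrolysis of GTP by G-protein alpha subunits and so shorten the signal of a G-protein coupled receptor. In T. reesei, light and the carbon source act together on the transcription of genes for plant cell wall degradation and for metabolism. Genes with a steady transcript level are commonly used as internal references for measuring others, and the scaling of RNA-seq libraries by size factors also rests on many genes keeping their level.

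Each library held between 11.25 and 15.84 M reads on genes. Transcripts of the deleted gene rgs4 (TrG0496W), which checks the labels, had 4, 0 and 0 reads in Δrgs4 LL and 5, 0 and 0 reads in Δrgs4 DD, against 1470, 2040 and 1961 reads in wild-type LL and 1710, 1588 and 1627 reads in wild-type DD. Of the 8895 tested genes, which reached 10 reads in 3 or more libraries, 59.2% had an adjusted p below 0.05 for light in Δrgs4 and 59.1% for light in the wild-type (limma, Benjamini-Hochberg adjustment). Δrgs4 DD replicate 3 stood apart: without it 283 genes differed by over 0.58 (log2) at an adjusted p below 0.05 for rgs4 in darkness, against 8 with it.

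Transcript levels of the 200 stable genes spanned a wide range. Their mean normalized counts ran from 3437 to 127244 with a median of 5302, a 37.0-fold span. Of the 200 genes, 26 lay above 10000, 83 between 5000 and 10000, and 91 below 5000. The fewest reads of any of them in any library were 2472, for which counting alone gives an error of 2.01%. All 200 therefore passed the filter on low reads, and none owed its place to a single group. No gene lengths were used, so the order by normalized count is an order of read numbers and not of transcripts per length.

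The share of stable genes varied with abundance. Of the 10 most abundant genes 1, TrC1333W, was among the 200. They made up 9 of the 50, 11 of the 100, 26 of the 200 and 70 of the 400 most abundant genes. Down to the lowest of the 200 there were 845 genes, so that 23.7% of these were stable and 645 were not. Among all tested genes 1837 (20.7%) had a range below 0.3. When the tested genes were split into 10 classes of equal size by mean level, this share was 2.36% in class 1 (the lowest), 33.1% in class 9 and 24.0% in class 10.

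**Figure D1:**
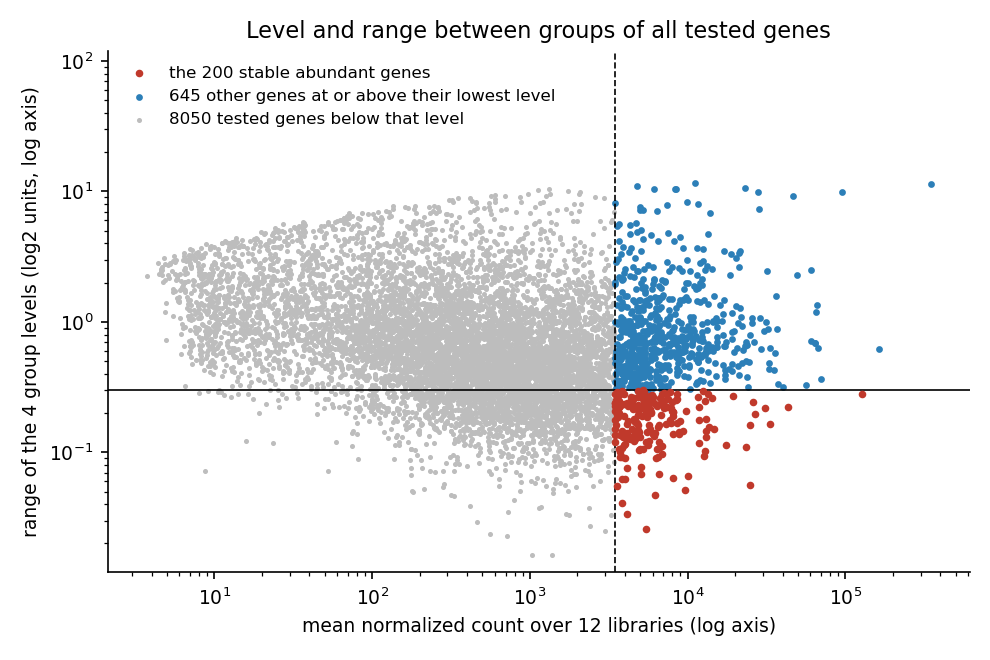
Each point is a gene, with its mean normalized count over 12 libraries on the horizontal log axis and the range of its 4 group levels in log2 units on the vertical log axis. The 200 stable abundant genes lie below the line at 0.3 and right of the dashed line at 3437, and the 645 other genes at or above that level reach ranges of 11.7.

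The range of group levels had a median of 0.19 in the 200 genes, against 0.70 in the 645 other abundant genes and 0.62 in all tested genes. In 22 of the 200 it was below 0.1, in 85 between 0.1 and 0.2, and in 93 between 0.2 and 0.3. The group levels thus fill the allowed interval up to its limit. The limit on the range was passed by a narrow margin in TrA0185W (0.298) and TrB1666C (0.297), and TrE0894W (0.301) and TrE0799C (0.301) lay just outside it. Of the abundant genes outside, 95 had a range between 0.3 and 0.4, and 209 had a range of 1 or more. The limit on abundance fell between TrF0979W with a mean of 3437 normalized counts and TrA1428C with 3423, so that neither limit marks a gap in the data.

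TrC1333W was the most abundant of the 200 genes and alone took 8.37% of their normalized counts. Its normalized counts were 149132, 130741 and 136737 in Δrgs4 LL and 124929, 120552 and 127504 in Δrgs4 DD. In the wild-type they were 138898, 126346 and 129015 in LL and 115185, 117258 and 110634 in DD. In both strains all LL libraries lay above all DD libraries, and the range of its group levels, 0.28, was close to the limit. By limma the adjusted p for light was 0.241 in Δrgs4 and 0.142 in the wild-type. The gene ranked first among the 200 in each of the 12 libraries.

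TrD0106C ranked second in all 12 libraries. It had 40451, 39250 and 41687 normalized counts in Δrgs4 LL and 39168, 41433 and 47420 in Δrgs4 DD, against 45759, 41914 and 41921 in wild-type LL and 46434, 45444 and 49852 in wild-type DD. Its mean was lowest in Δrgs4 LL and highest in wild-type DD, where TrC1333W had its highest and lowest means.

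TrA1422W had the smallest range of group levels, 0.056, of the 10 most abundant stable genes. Its normalized counts were 26163, 24153 and 23477 in Δrgs4 LL, 23512, 24360 and 26700 in Δrgs4 DD, 26584, 22931 and 23769 in wild-type LL and 25344, 24973 and 25886 in wild-type DD. The libraries of all 4 groups overlapped, and the coefficient of variation over the 12 libraries was 5.26%. TrA1163C had higher means in Δrgs4, with 20330 ± 552 in Δrgs4 LL and 21222 ± 975 in Δrgs4 DD, against 17605 ± 1002 in wild-type LL and 17784 ± 1180 in wild-type DD (SD, n = 3 each). All 6 Δrgs4 libraries of this gene lay above all 6 wild-type libraries. By limma its adjusted p for rgs4 was 0.101 in LL and 0.196 in DD, so neither was below 0.05.

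**Figure D2:**
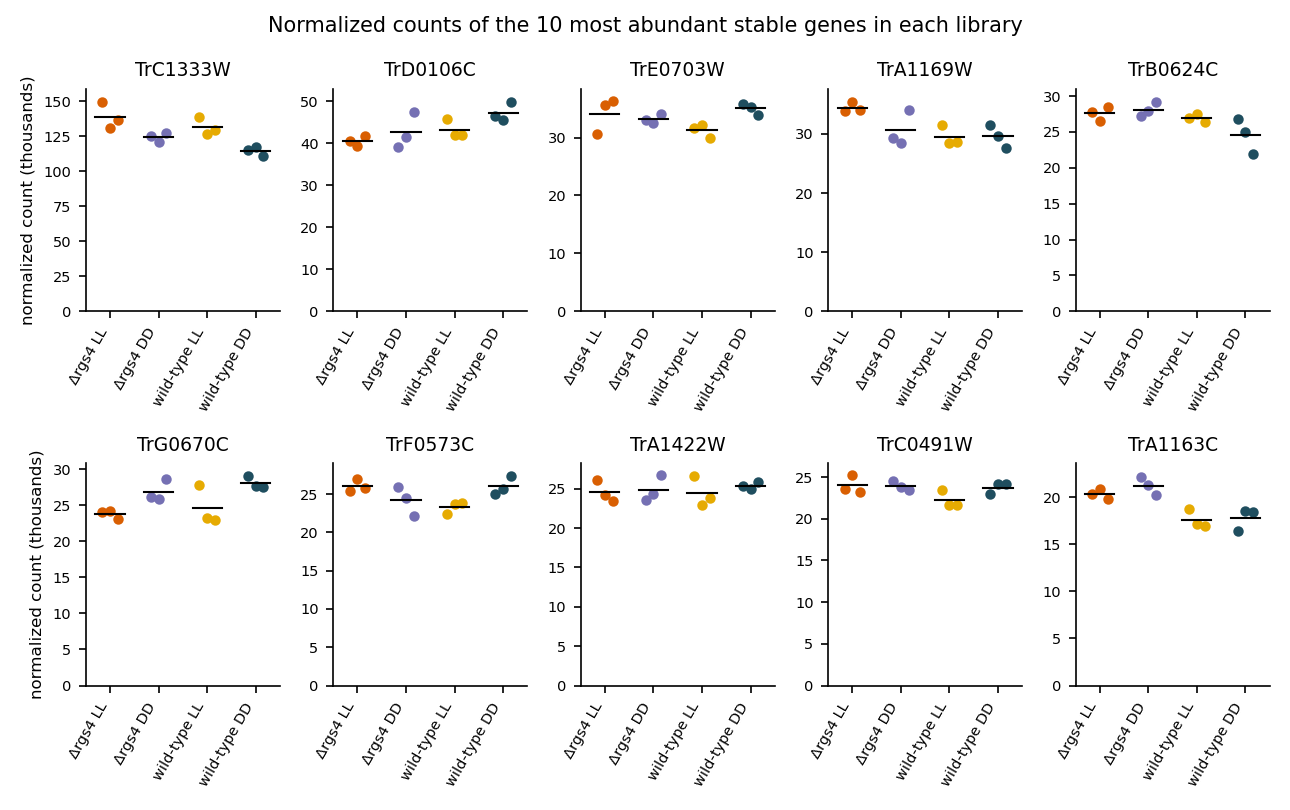
Each panel shows 1 of the 10 most abundant stable genes, with normalized counts divided by 1000 on a vertical axis that starts at 0, a point per library and a bar at the mean of the 3 libraries of each group. TrC1333W has LL libraries above DD libraries in both strains, while the groups of TrA1422W overlap between 22931 and 26700.

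Of the other 6 genes in this set, TrE0703W, TrA1169W, TrB0624C, TrG0670C, TrF0573C and TrC0491W had ranges of group levels from 0.11 to 0.24. The 10 genes together held 25% of the counts of the 200. In every library 9 of them were among the 10 highest, and 11 genes reached the 10 highest in any library. The rank order of all 200 was also kept between libraries. The Spearman correlation of their levels between a pair of libraries had a median of 0.95 over 66 pairs and was 0.89 at the lowest. For the 645 other abundant genes the same median was 0.39. Over all tested genes, whose mean levels start at 3.73 normalized counts, it was 0.89, with 0.88 at the lowest. A high value was thus not confined to the 200. Ranks are easier to keep over a wider span of levels, so these values are not directly comparable. These correlations are across genes, which are not independent replicates, and the choice by level and range contributes to them.

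The smallest range of group levels was that of TrD1252C. Its normalized counts were 5739, 5138 and 5387 in Δrgs4 LL and 5655, 5101 and 5326 in Δrgs4 DD, against 5767, 5153 and 5193 in wild-type LL and 5194, 5268 and 5909 in wild-type DD. The 4 group means lay between 5361 and 5457, a range of 0.026, although single libraries of a group differed by more. TrA1669W, TrA1930C, TrA0203W and TrG0566W followed, with ranges from 0.034 to 0.051. TrA1669W also had the lowest coefficient of variation over the 12 libraries among the 200 genes (3.64%), whereas that of TrA1930C was 9.13%. A flat set of group means therefore did not imply libraries that were close to each other.

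At the other end of the allowed interval, TrB1666C had 10590, 15634 and 14289 normalized counts in Δrgs4 LL and 10100, 10897 and 12891 in Δrgs4 DD, against 11812, 11717 and 11018 in wild-type LL and 14148, 13569 and 13923 in wild-type DD. Its range of 0.297 was that between Δrgs4 DD, the lowest group, and wild-type DD, the highest, whose libraries did not overlap. By limma the adjusted p for rgs4 in DD was 0.374. Its wild-type libraries were lower in LL without overlap, and those of Δrgs4 overlapped between LL and DD. TrA0185W, TrB0711C and TrG0682C, with ranges from 0.290 to 0.298, were highest in Δrgs4 LL, and TrC1441C was lowest in wild-type LL.

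The spread between replicates was not part of the choice. The SD of log2(normalized count + 2) between the 3 libraries of a group, pooled over the 4 groups, had a median of 0.081 in the 200 genes, against 0.125 in the 645 other abundant genes and 0.155 in all tested genes. It exceeded 0.2 in 5 of the 200 genes (2.5%), and in 30.5% of the other abundant and 38.1% of the tested genes. The median SD of the 200 was 0.069 in Δrgs4 LL, 0.086 in Δrgs4 DD, 0.081 in wild-type LL and 0.053 in wild-type DD. In the same group order it was 0.105, 0.129, 0.091 and 0.097 in the other abundant genes. In all tested genes it was 0.135, 0.153, 0.111 and 0.127. The 200 genes were thus lower in each group, but only slightly below the other abundant genes in wild-type LL. A gene with noisy replicates is less likely to have 4 close group means, so this measure is not fully separate from the rule. Genes are not replicates and no test was made.

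The steadiest replicates were those of TrG0615W, with an SD of 0.022, the lowest of all tested genes. It had 13840, 13398 and 14121 normalized counts in Δrgs4 LL, 14795, 14484 and 14584 in Δrgs4 DD, 13513, 13462 and 13280 in wild-type LL and 13187, 13093 and 13113 in wild-type DD. With this spread, even small differences separated the libraries: all Δrgs4 DD libraries lay above all Δrgs4 LL libraries, and all wild-type LL libraries lay above all wild-type DD libraries. All Δrgs4 DD libraries also lay above all wild-type DD libraries. These groups held its highest and lowest level, 0.155 apart. TrG1166W, TrA1723W, TrD0480C and TrB1429W were next, with SDs from 0.034 to 0.042.

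The 4 genes with the widest replicates, TrE0707C, TrA1205W, TrA0412W and TrB1335W, shared their pattern across libraries. TrE0707C had 3696, 9402 and 6369 normalized counts in Δrgs4 LL and 10360, 7499 and 4639 in Δrgs4 DD, against 5576, 7465 and 6770 in wild-type LL and 4617, 6741 and 7422 in wild-type DD. Within Δrgs4 LL replicate 2 was 2.54-fold above replicate 1, and within Δrgs4 DD replicate 1 was 2.23-fold above replicate 3. Its group means, 6489 ± 2855 in Δrgs4 LL, 7499 ± 2860 in Δrgs4 DD, 6604 ± 955 in wild-type LL and 6260 ± 1463 in wild-type DD (SD, n = 3 each), nevertheless spanned only 0.26 on the log2 scale.

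TrA1205W, TrA0412W and TrB1335W had the same high and low libraries in Δrgs4, with replicate 2 over replicate 1 at 2.17-, 2.39- and 1.86-fold in LL, and replicate 1 over replicate 3 at 2.06-, 1.75- and 1.31-fold in DD. The deviations of the 4 genes from their group means correlated with Pearson's r between 0.92 and 0.97 over the 12 libraries in all 6 pairs, which share these libraries. The pooled SDs were 0.49 for TrE0707C, 0.44 for TrA1205W, 0.40 for TrA0412W and 0.26 for TrB1335W. The gene with the next widest spread, TrA0790W (0.20), did not share the pattern, with r between -0.59 and -0.43 to the 4 genes. These 5 genes met the rule through means over replicates that differed widely, and their values by library do not show a constant level.

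**Figure D3:**
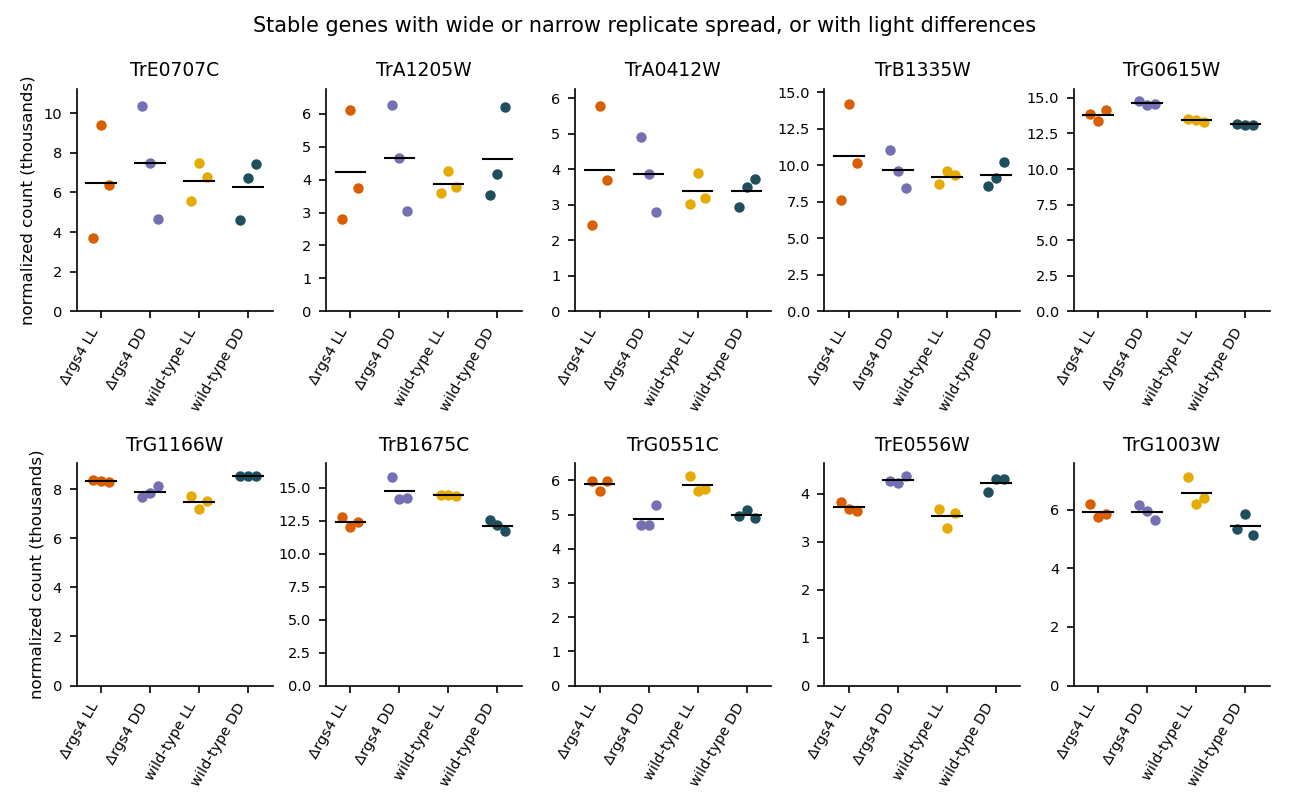
Each panel shows a stable gene with normalized counts divided by 1000 on an axis from 0, a point per library and a bar at the group mean. TrE0707C, TrA1205W, TrA0412W and TrB1335W have wide replicates in Δrgs4, TrG0615W and TrG1166W narrow ones, TrB1675C has opposite light differences in the strains, TrG0551C is higher and TrE0556W lower in LL, and TrG1003W encodes a glycogen debranching enzyme.

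Over all 12 libraries, regardless of group, the range of log2(normalized count + 2) had a median of 0.36 in the 200 genes, against 0.96 in the other abundant genes. In 188 of the 200 (94.0%) it was below 0.58, against 13.6% of the other abundant genes and 25.5% of the tested genes. The study used 0.58 as a threshold on differences between groups, not between single libraries. The rule contributes to these figures, as it bounds the group levels of the 200 within 0.3. Of the other abundant genes, 420 had a range of group levels of 0.58 or more. The coefficient of variation over 12 libraries had a median of 7.71%, with 3.64% at the lowest and 28.9% at the highest, that of TrE0707C. The ratio of the most constant pair, TrA1422W to TrG0566W, stayed between 2.51 and 2.64 in all libraries.

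Some of the remaining spread was common to the 200 genes. The median deviation of the 200 from their group means was +0.081 in wild-type LL replicate 1, where 176 of the 200 genes (88.0%) lay above the mean of their group. It was -0.052 and -0.027 in the other wild-type LL libraries. In Δrgs4 LL it was +0.054, -0.041 and -0.015, in Δrgs4 DD -0.029, -0.031 and +0.061, and in wild-type DD +0.006, +0.002 and -0.015. Over all tested genes the same medians stayed between -0.012 and +0.014. The other abundant genes had a median of +0.034 in wild-type LL replicate 1, but went against the 200 genes in Δrgs4 DD, with +0.034 in replicate 1 and -0.007 in replicate 3. These values depend on the scaling: with total reads the median of the 200 was +0.042 in wild-type LL replicate 1, and with total reads and upper-quartile factors the highest library was Δrgs4 DD replicate 3, at +0.125 and +0.114.

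In wild-type LL replicate 1 the deviation differed with level over all tested genes, with a median of -0.086 in the class of lowest level and +0.052 in that of highest level. Such a difference was not particular to this library. In the same order the medians were +0.116 and +0.013 in Δrgs4 DD replicate 1, and -0.099 and +0.014 in Δrgs4 DD replicate 3. Whether level accounts for the deviation of the 200 genes was not tested. After the median deviation of the set was subtracted from each library, the median SD of the 200 genes was 0.059, against 0.122 for the other abundant genes treated in the same way. Pairwise, the deviations of the 200 correlated with a median r of 0.36 over 19900 pairs of genes in the same 12 libraries, against 0.03 in the other abundant genes. The deviations of 132 genes had an r above 0.5 with the median of the set, and those of 30 genes had an r below 0.

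**Figure D4:**
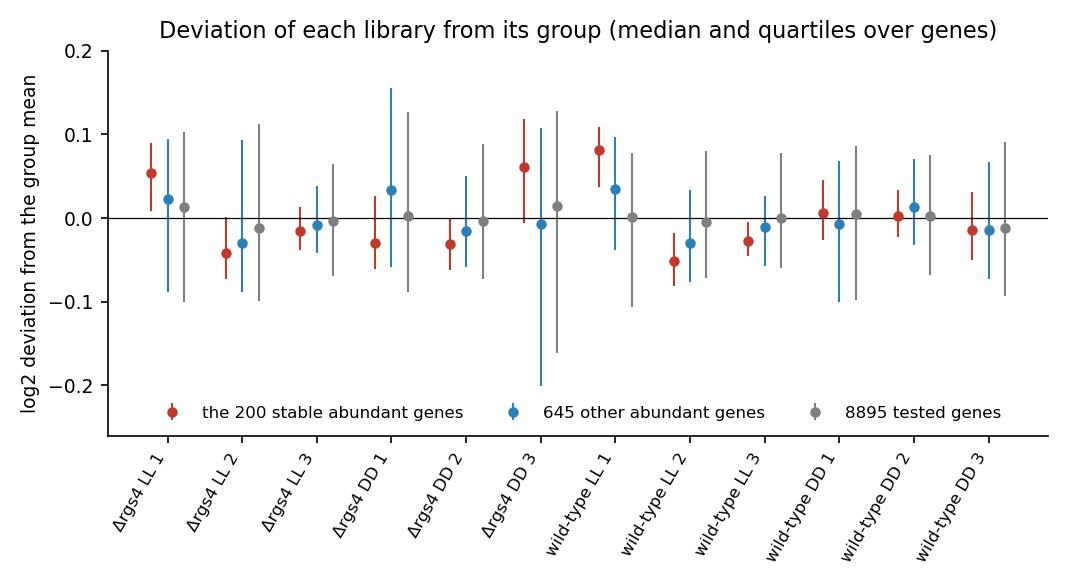
Points are medians and bars the quartiles over genes of the log2 deviation of each library from the mean of its group, for the 200 stable genes, the 645 other abundant genes and all 8895 tested genes. The medians of the stable genes reach +0.081 in wild-type LL replicate 1 and -0.052 in wild-type LL replicate 2, while those of all tested genes stay near 0 (with total reads or upper-quartile factors Δrgs4 DD replicate 3 is the highest).

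The 200 genes took a similar share of the normalized counts in every group. It was 10.9 ± 0.24% in Δrgs4 LL, 10.7 ± 0.68% in Δrgs4 DD, 11.3 ± 0.24% in wild-type LL and 10.8 ± 0.19% in wild-type DD (SD, n = 3 each). The 10 most abundant genes of the whole file, of which TrC1333W is 1, took 10.1 ± 1.47% in Δrgs4 LL and 6.43 ± 0.48% in Δrgs4 DD, against 9.31 ± 0.49% in wild-type LL and 6.67 ± 0.05% in wild-type DD. The largest of these, TrE0391W, had a range of 11.5. In such bulk samples, fewer cells of a kind and less RNA per cell cannot be told apart.

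Small differences with light remained within the allowed interval. By limma, 43 of the 200 genes had an adjusted p below 0.05 for light in Δrgs4, where 59.2% of all tested genes did, and 40 for light in the wild-type, where the share was 59.1%. For rgs4 in LL the count was 3, beside a background of 8.94%, for rgs4 in DD 0, beside 0.135%, and for the interaction of light and strain 1, beside 1.03%. At an unadjusted p below 0.05 there were 38 genes for rgs4 in LL, 11 for rgs4 in DD, 58 for light in Δrgs4, 52 for light in the wild-type and 19 for the interaction, where the shares over all tested genes were 26.4%, 12.4%, 63.5%, 63.4% and 17.5%. With the fold change threshold of 0.58, 0 of the 200 were called in any of the 5 comparisons by limma or by voom, beside backgrounds of 2.11% and 0.0899% for rgs4 in LL and DD, 36.2% and 36.9% for light in Δrgs4 and in the wild-type, and 0.708% for the interaction. The rule keeps group levels within 0.3, which limits every difference between 2 groups. It limits the interaction, a difference of 2 such differences, less tightly, and this was 0.52 in TrB1666C. Since the rule used all of these contrasts, nothing is read from the counts.

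The counts for rgs4 rested on single libraries. Without Δrgs4 DD replicate 3, which enters the shared estimate of the spread, 14 of the 200 genes had an adjusted p below 0.05 for rgs4 in LL, 4 for rgs4 in DD and 3 for the interaction, and the shares over all tested genes were then 14%, 6.04% and 3.59%. For light it was 46 in Δrgs4, beside 58.6%, and 49 in the wild-type, beside 62.3%. The count for rgs4 in LL was 0 without Δrgs4 LL replicate 1 or 3, or without wild-type LL replicate 2 or 3. For the interaction it was 0 without any 1 of the other 11 libraries.

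The light differences of the 2 strains come from separate libraries. They had the same sign in 137 of the 200 genes (68.5%), of which 81 were higher and 56 lower in LL. Pearson's r between the strains was 0.46 and Spearman's rho 0.47 over the 200 genes. The same sign was found in 94.3% of the 645 other abundant genes, with an r of 0.98, and in 84.0% of all tested genes, with an r of 0.96. The rule bounds both differences and so lowers these figures by construction. The differences between strains, in LL and in DD, had the same sign in 109 of the 200 genes (54.5%), with an r of 0.02. The shares were 68.1% in the other abundant genes, with an r of 0.35, and 56.6% in all tested genes, with an r of 0.21.

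**Figure D5:**
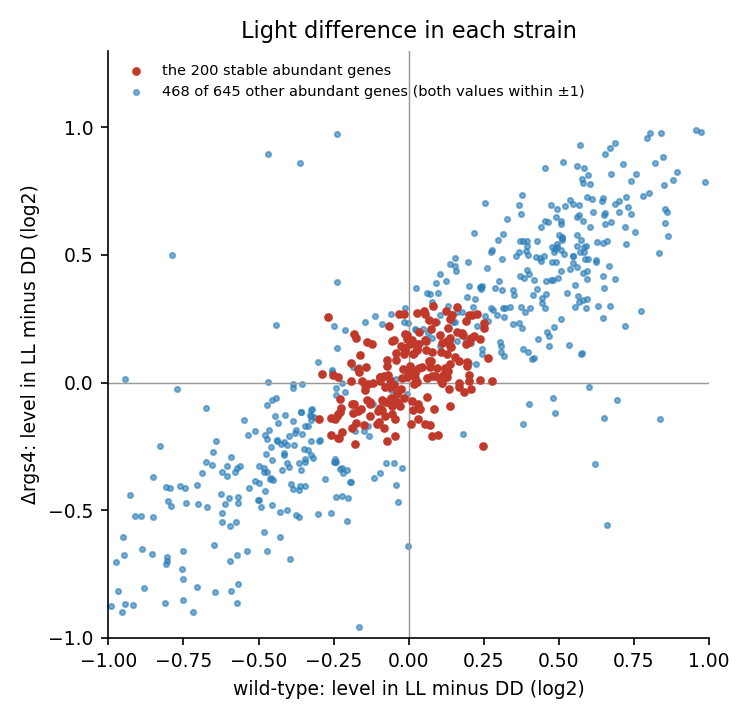
Each point is a gene, with the level in LL minus that in DD of the wild-type on the horizontal and of Δrgs4 on the vertical axis, in log2 units. The 200 stable genes form a cloud within 0.3 of 0 in which 137 have the same sign in both strains, and the 468 other abundant genes with both values within 1 lie along the rising diagonal.

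In 71 genes the libraries of Δrgs4 in LL and DD did not overlap, where 63.0% of the tested genes did not, and in 72 those of the wild-type, where the share was 68.1%. For rgs4 the libraries of the strains did not overlap in 56 genes in LL (background 34.0%) and in 19 in DD (16.5%). In 27 genes LL and DD did not overlap in either strain and differed in the same direction, 18 of them higher and 9 lower in LL, where 50% of the tested genes did so. An adjusted p below 0.05 in the same direction in both strains was found for 16 of the 200 genes, 10 higher and 6 lower in LL, beside backgrounds of 46.8%, 21.7% and 25.1%. In 66 of the 200 genes the adjusted p for light was below 0.05 in at least 1 strain, beside 71.1% of the tested genes, and in 134 it was not.

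Among the 10 genes that were higher in LL, TrG0551C had the largest mean difference. Its normalized counts were 5980, 5695 and 5990 in Δrgs4 LL and 4682, 4694 and 5279 in Δrgs4 DD, and 6122, 5692 and 5755 in wild-type LL and 4967, 5122 and 4915 in wild-type DD. The level in LL was higher by 0.27 in Δrgs4 and 0.23 in the wild-type, with no overlap of libraries. TrF0635C and TrG0399C followed, with differences of 0.27 and 0.26 in Δrgs4 and of 0.21 and 0.20 in the wild-type.

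Of the 6 genes that were lower in LL, TrE0556W had 3837, 3684 and 3638 normalized counts in Δrgs4 LL and 4262, 4221 and 4366 in Δrgs4 DD. In the wild-type it had 3692, 3292 and 3612 in LL and 4047, 4312 and 4315 in DD. The difference, -0.20 in Δrgs4 and -0.26 in the wild-type, again showed no overlap. In TrD0286C it was -0.22 and -0.24, and in TrG0369W -0.22 and -0.23. These genes were named after their values had been seen, as were all genes named for an adjusted p, for opposite light differences, for a constant ratio or as neighbours.

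TrB1675C was the only one of the 200 with an adjusted p below 0.05 for the interaction, and it differed with light in opposite directions. It had 12745, 12033 and 12374 normalized counts in Δrgs4 LL and 15833, 14124 and 14181 in Δrgs4 DD, against 14403, 14439 and 14368 in wild-type LL and 12561, 12131 and 11671 in wild-type DD. The light difference was -0.25 in Δrgs4 and +0.25 in the wild-type, and libraries of LL and DD overlapped in neither strain. The adjusted p for the interaction was 0.0378 by limma, but 0.0778 with the replicate block and 0.0528 with no filter beyond 1 read. It was 0.0231 without Δrgs4 DD replicate 3 and between 0.0508 and 0.114 without any 1 of the other 11 libraries. Opposite directions without overlap were found in 6 of the 200 genes, beside 1% of the tested genes. Besides TrB1675C these were TrA0270C, TrB0306W, TrC0642W, TrG0615W and TrG1166W.

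The 3 genes with an adjusted p below 0.05 for rgs4 in LL were TrA1435C, TrA1700C and TrC0120W, which were higher in Δrgs4. The list and its direction depend on the scaling, with 1 gene higher and 2 lower under TMM factors and 1 higher and 1 lower under upper-quartile factors. TrA1700C kept an adjusted p below 0.05 (limma) under both, at 0.0236 and 0.0491, and TrA1435C and TrC0120W did not. TrA1700C had 8384, 7930 and 7997 normalized counts in Δrgs4 LL, against 7050, 6189 and 6697 in wild-type LL, and its DD libraries of both strains lay between 6569 and 7036. The strains therefore did not overlap in LL but did in DD. The differences in LL were 0.27 for TrA1435C, 0.29 for TrA1700C and 0.26 for TrC0120W, which is close to the largest that the rule admits.

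Of the 4 groups, Δrgs4 LL most often held the highest level, in 82 of the 200 genes, against 40 in Δrgs4 DD, 40 in wild-type LL and 38 in wild-type DD. The lowest level was in Δrgs4 LL in 32 genes, in Δrgs4 DD in 54, in wild-type LL in 66 and in wild-type DD in 48. These counts use the levels that made the choice, and were not made for other genes or with other scaling. In LL the Δrgs4 level exceeded the wild-type level in 126 of the 200 genes. It did so in 457 of the 645 other abundant genes and in 4829 of the 8895 tested genes. A tilt toward Δrgs4 in LL was therefore not particular to the 200. The median difference of the 200 genes between the strains in LL was 0.04, beside 0.02 over all tested genes, and with upper-quartile scaling it was -0.005, beside -0.019 over all tested genes, so that its direction depends on the scaling.

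The sources used here give a function for 1 of the 200 genes. TrG1003W encodes a glycogen debranching enzyme of glycoside hydrolase family GH13, which helps to break down the branches of the storage carbohydrate glycogen. Its normalized counts were 6188, 5762 and 5848 in Δrgs4 LL and 6146, 5951 and 5637 in Δrgs4 DD, against 7118, 6204 and 6410 in wild-type LL and 5325, 5837 and 5126 in wild-type DD. The Δrgs4 libraries overlapped between LL and DD, and the wild-type libraries were higher in LL without overlap. By limma the adjusted p for light was 0.00602 in the wild-type and 0.954 in Δrgs4. For light in the wild-type, 59.1% of the tested genes had an adjusted p below 0.05. All Δrgs4 LL libraries lay below all wild-type LL libraries, but by a narrow margin, 6188 against 6204. The adjusted p for rgs4 in LL was not below 0.05 (limma), and 34.0% of the tested genes had no overlap in that comparison. The range of group levels was 0.28, and the gene lay 78th of the 200 by mean level.

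Other annotated genes of carbon and amino acid metabolism, named after their values had been seen, missed a limit. Gph1 (TrC0723W), a glycogen phosphorylase that releases glucose-1-phosphate from glycogen, had a mean of 13109 normalized counts and a range of 0.63. Hxk1 (TrE0694C), a hexokinase, had a mean of 4232 and a range of 0.32, just outside. The glucoamylase TrE0969W and the ornithine transaminase TrD0654C had ranges of 0.15 each but means of 2224 and 1543, below the limit on abundance. Of 8 genes for ribosomal proteins and for proteins of small nuclear RNA that the study names, 4 reached the abundance of the 200, and 0 had a range below 0.3, with ranges from 0.65 to 1.02. The study chose this list for differences in these samples, so the count is not independent evidence.

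Gene position was not used in the choice. The identifiers carry a letter, a number and W or C, which were taken as chromosome, order along it and strand, as no source used here defines them. The 200 genes were spread over all 7 letters, with 43 on A, 28 on B, 32 on C, 21 on D, 32 on E, 21 on F and 23 on G, and their share of all genes of a letter lay between 1.42% on B and 2.45% on E. Within 100 numbers of the first or last number of a letter lay 9 of the 200 genes (4.50%), against 7.44% of the other abundant genes, 11.8% of the tested genes and 12.9% of all genes. By strand, 102 of the 200 (51.0%) were W and the others C.

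Some of the 200 genes were neighbours. They formed 7 pairs with consecutive numbers, which held 14 genes, and no run of 3. The number of pairs to be expected from their density was not worked out. In 4 of the pairs the genes were divergent by their strand letters. Among the 89 pairs formed by all 845 abundant genes, which held 167 genes, 29.2% were divergent. The pair TrD0106C and TrD0107W, divergent, had deviations that correlated with r = 0.77 over the 12 libraries, and the convergent pair TrE0372W and TrE0373C had r = 0.87. TrG0565C and TrG0566W, also divergent, had r = -0.72. Of the other 4 pairs, 3 had r between 0.45 and 0.64 and TrE0703W and TrE0704W had r = -0.10. The r between pairs shares the libraries and any deviation of a whole library.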

How the data were processed

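RNA of 12 cultures was sequenced, paired-end after ribosomal RNA depletion. The study's methods state trimming with bbduk, alignment with HISAT2 2.2.1 to the QM6a genome and counting with featureCounts. The kit was stranded per the labels. How featureCounts treated strand and multiply aligned reads was not found in these sources, which leaves genes that overlap, or that have a close paralog, uncertain. The authors deposited log2-like values from the variance stabilizing transformation of DESeq2 for 10879 genes. A table of raw counts, also deposited, has 12 columns whose names match no sample label, and it was not used.

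The transformation was inverted with the lowest value, 6.74, which stands for 0 reads. This gave normalized counts, and from them whole reads for 100% of values (tolerance 0.01). Tests used limma 3.58.1 in R 4.3.3 with a trended variance on log2(normalized counts + 2), 4 group means and all 12 libraries in 1 fit, over the 8895 genes that reached 10 reads in 3 or more libraries. A call needed an absolute log2 difference above 0.58 together with an adjusted p (Benjamini-Hochberg) under 0.05. Values were read with Python 3.11.15 and pandas 2.3.3, and plotted with matplotlib 3.10.9. The fit and the inversion were tested on simulated data. Alternatives covered library scaling, pseudocount, scale, filter, voom, the replicate number as a block, the limits of the rule, and leaving out each library.

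The members and lists were chosen with earlier results of these data known. The genes named by rule are the 10 most abundant members, the 5 with the smallest and the 5 with the largest range and replicate SD, the last 3 members, the 3 genes next outside each limit, annotated members, the 10 most abundant genes outside, 8 genes of ribosomal and small nuclear RNA proteins, and rgs4. Others were named after their values were seen, and the text says so. Replicate numbers were not taken to pair samples across groups. The correlation of same-numbered deviations ran from -0.41 to 0.35, which with 3 libraries per group cannot decide whether samples are paired. p-values and SDs measure the spread between these cultures, and errors from read numbers cover counting only. No sequences are given, since 0 of the 10879 identifiers paired with the RefSeq annotation used here.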

Additional observations from a re-analysis of the deposited data

Results flagged for a closer look

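In 6 of the 200 genes every LL library lay on one side of every DD library in Δrgs4 and on the opposite side in the wild-type. The light difference in Δrgs4 minus that in the wild-type, from the limma fit on the log2 scale, was -0.50 for TrB1675C, 0.38 for TrB0306W, 0.28 for TrA0270C, 0.27 for TrG1166W, 0.21 for TrC0642W and -0.12 for TrG0615W. The limma test of this difference gave an adjusted p of 0.0378 for TrB1675C, and from 0.0991 to 0.458 for the other 5 genes. TrB0306W was 1 of the last 3 genes that the limit on abundance admitted. The rule bounds all group levels of these genes within 0.3, and the share of such genes among all tested was 1%.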

How the results depend on the processing

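The list depends most on its own limits. With a range limit of 0.2, 107 of the 200 genes stayed among the 200 most abundant that passed, and 1272 genes of the file passed in place of 2499. With a limit of 0.4, 133 stayed, since more abundant genes entered. On the deposited transformed values, which compress low counts by construction, 5355 genes passed and 189 of the 200 stayed. TMM factors kept 191, upper-quartile factors 167, total reads 170, group medians 180, and pseudocounts of 0.5 and 5 all 200. Leaving out 1 library kept 177 (without Δrgs4 DD replicate 3) to 197 genes, and 142 were kept in all 12 such lists. The median replicate SD then ran from 0.073 to 0.084, the share of counts from 10.9% to 11% and the number of genes with the same sign of light difference, a count added after seeing the data, from 128 to 144. In wild-type LL replicate 1 the median deviation was +0.042 with total reads, and it was then exceeded by Δrgs4 DD replicate 3, as also with upper-quartile factors.

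Over all tested genes, calls for rgs4 in LL (188) fell to 35 on the deposited values, and ran from 50 to 245 without 1 library. Calls for rgs4 in DD (8) were 2 with upper-quartile factors, 3 with the replicate block, 4 with no filter, 39 with voom, 29 on the deposited values, 5 with pseudocount 0.5, 1 with only the libraries compared, and 1 to 283 without 1 library. Calls for light numbered 1988 in Δrgs4 (3221) and 2013 in the wild-type (3280) on the deposited values, and 3024 to 3282 and 3105 to 3350 without 1 library. Calls for the interaction (63) were 26 with upper-quartile factors, 4 with the replicate block, 37 with no filter, 40 with voom and 7 to 192 without 1 library. The cause was not tested. Of the 200 genes, 0 were called at both thresholds under any of these settings, and the block changed no such call. With the block, 1 member in place of 3 had an adjusted p below 0.05 for rgs4 in LL and 0 in place of 1 for the interaction. Members with an adjusted p below 0.05 numbered 0 to 14 for rgs4 in LL, 27 to 46 for light in Δrgs4 and 25 to 49 in the wild-type without 1 library.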
